A study of Mus musculus with 6 samples.

Results

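Toll-like receptor and inflammasome genes were examined in RNA sequencing libraries of mouse alveolar epithelial type 2 preparations. The rule chose 10 genes by symbol, and values were found for 9 of them among the 13931 genes listed: the receptor genes Tlr2 and Tlr7, the co-receptor gene Cd14, the signalling genes Myd88 and Irak4, and the inflammasome genes Nlrp3, Pycard, Casp1 and Gsdmd. Tlr4 is not analysed here. The 9 genes have 11 listed transcripts, and each gene's value is the sum of its transcripts in FPKM, a unit that adjusts the fragments of each transcript for its length and for the size of the library. The series holds 3 libraries from C57BL/6 mice exposed repeatedly to PBS (titled sham) and 3 from C57BL/6 mice exposed repeatedly to bleomycin at 1 U/kg (titled mBLM), a DNA-cleaving drug that injures the rodent lung, and its design assigns 3 mice to each group. The sources used here do not say how the cells were isolated, how old the mice were, or how often and how long before harvest they were exposed.

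Toll-like receptors are membrane proteins that recognise molecules of microbes and of damaged cells. TLR2 works at the cell surface with a partner receptor, TLR7 senses single-stranded RNA in endosomes, and CD14 hands lipopolysaccharide and other ligands to the receptors. Most of these receptors signal through the adaptor MyD88, which assembles with the kinase IRAK4 and leads to activation of NF-kB, a transcription factor of inflammatory genes. An inflammasome is a complex in which a sensor such as NLRP3 recruits the adaptor ASC, encoded by Pycard, and the protease caspase-1, which cuts the precursors of the cytokines IL-1beta and IL-18 and the pore-forming protein gasdermin D. In the lung these systems are best known from macrophages, monocytes and neutrophils.

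The start regions of 6 of the 9 genes could be matched in the RefSeq table (build GRCm38.p6, the assembly of mm10). Those of the 4 genes with the largest increases for which a start region was matched, and that of Myd88, which did not change past the test, are shown so that the motif matches can be read beside the values. Each is the part of the 250 bases before the RefSeq start that lies outside the exons of the gene in GENCODE release M21, written 5′ to 3′ on the strand of the gene. Capitals mark matches to 3 motifs searched on both strands: GAGGAAG, the core of sites of the leukocyte factor PU.1; the NF-kB consensus; and the motif of interferon regulatory factors, which is GAAA, any 2 bases and GAAA.
Tlr2, minus strand, chr3:83841768-83841858: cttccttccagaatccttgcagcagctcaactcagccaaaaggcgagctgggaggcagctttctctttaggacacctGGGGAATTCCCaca
Nlrp3, plus strand, chr11:59542436-59542685: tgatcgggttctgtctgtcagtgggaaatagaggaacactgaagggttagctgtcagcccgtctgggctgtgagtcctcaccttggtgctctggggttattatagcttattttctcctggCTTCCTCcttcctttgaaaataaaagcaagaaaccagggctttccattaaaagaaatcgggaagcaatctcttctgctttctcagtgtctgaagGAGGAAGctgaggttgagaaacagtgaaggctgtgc
Pycard, minus strand, chr7:127993868-127994117: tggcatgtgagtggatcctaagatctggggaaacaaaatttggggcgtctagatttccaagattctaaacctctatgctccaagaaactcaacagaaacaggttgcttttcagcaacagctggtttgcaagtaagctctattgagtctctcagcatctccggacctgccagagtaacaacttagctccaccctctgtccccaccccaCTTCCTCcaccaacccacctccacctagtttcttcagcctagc
Casp1, plus strand, chr9:5298267-5298516: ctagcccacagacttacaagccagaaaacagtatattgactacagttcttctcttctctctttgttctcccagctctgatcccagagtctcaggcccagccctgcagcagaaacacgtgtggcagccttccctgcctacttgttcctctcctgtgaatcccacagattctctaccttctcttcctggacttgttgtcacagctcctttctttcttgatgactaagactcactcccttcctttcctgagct
Myd88, minus strand, chr9:119340042-119340268: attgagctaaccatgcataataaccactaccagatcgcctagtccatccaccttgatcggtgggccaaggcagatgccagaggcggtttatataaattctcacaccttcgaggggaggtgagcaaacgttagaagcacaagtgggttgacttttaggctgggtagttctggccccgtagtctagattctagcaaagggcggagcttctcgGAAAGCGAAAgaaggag
The Tlr2 region held an NF-kB match in which 3 overlapping matches on both strands fall on the 11 bases from -173 to -163 relative to the RefSeq start. The listed Tlr2 transcript starts 159 bases upstream of the RefSeq start, so the match lies just before the start of that transcript. The Nlrp3 region held GAGGAAG at -36 to -30 and its reverse complement at -130 to -124, and the Pycard region held the reverse complement at -43 to -37. The Nlrp3 region shown lies directly before the start of Nlrp3-201 at 59542686. Nlrp3-001, the transcript with the higher bleomycin values, starts further upstream at 59541568, so for it the region lies inside the locus. Myd88 held the interferon regulatory factor motif at -40 to -31, and the Casp1 region held none of the 3. The matched region of Irak4, which also rose and is not shown, held none of the 3 either. Over all 32851 start regions of the table, 10.6% of the 250-base windows held GAGGAAG, 7.25% the NF-kB consensus and 2.98% the interferon regulatory factor motif. A match describes the letters only, and no binding was measured here.

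The comparison of bleomycin with PBS asks how these genes differed after repeated bleomycin exposure. Of the 9 genes, all of which passed the filter on low values, 6 rose and none fell (limma, Benjamini-Hochberg adjusted p under 0.05 over 12326 tested genes). Of all tested genes 22.5% changed by the same rule, 15.2% upward and 7.34% downward, and 43.6% had no overlap between the groups in either direction. Tlr2, Tlr7, Nlrp3, Pycard and Casp1 had adjusted p of 0.0069 or less, Irak4 had one of 0.0375, and Gsdmd, Myd88 and Cd14 did not pass. Of the 6 that rose, Tlr7, Nlrp3 and Pycard had a PBS mean under 1 FPKM and passed the filter through the bleomycin libraries, so that their calls were partly fixed by it. The values of the PBS and bleomycin groups did not overlap for 7 of the 9, all higher with bleomycin, while 27.2% of all tested genes were higher without overlap. Of the tested genes, 98.3% had a lower log2 fold change than Casp1, 98.1% than Nlrp3 and 97.6% than Tlr2, but 57.8% than Myd88. In bulk libraries, a change in the number of cells of a type and a change in RNA per cell cannot be told apart.

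**Figure D1:**
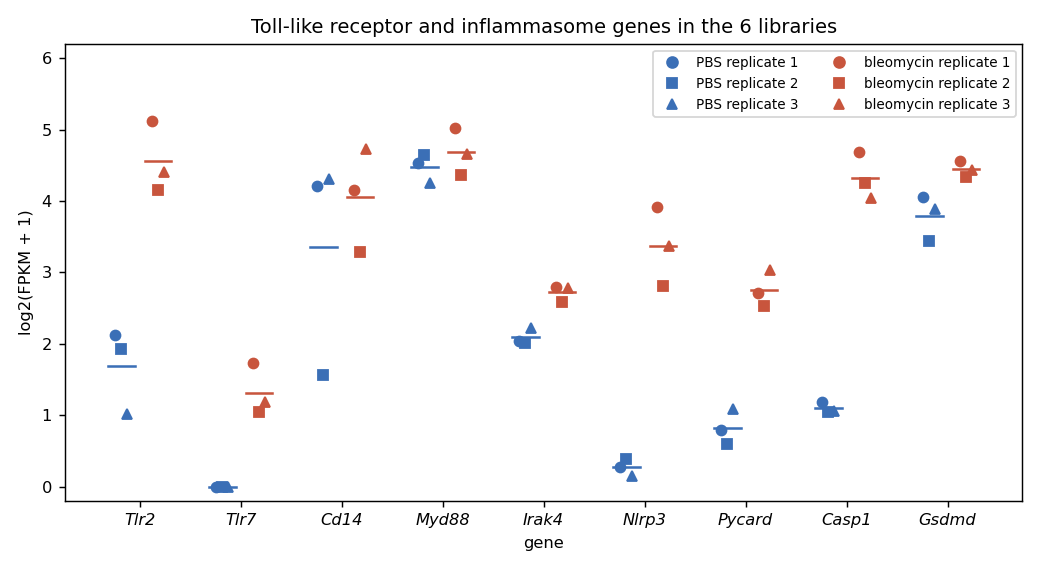
Level of each gene in every library, on the vertical axis as log2(FPKM + 1), with blue symbols for PBS, red symbols for bleomycin, symbol shape for the replicate number and horizontal bars for group means. Tlr2, Tlr7, Irak4, Nlrp3, Pycard, Casp1 and Gsdmd have no overlap between the groups, while Cd14 and Myd88 overlap.

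Among the receptors, Tlr2, which recognises bacterial lipoproteins, measured 3.36, 2.81 and 1.01 FPKM with PBS against 33.9, 16.8 and 20.3 FPKM with bleomycin, here and below in the order of replicates 1 to 3. Every bleomycin library lay above every PBS library. Tlr2 (ENSMUSG00000027995.10, mm10 chromosome 3, 83836272 to 83841767, minus strand) rose by 2.87 ± 0.38 (limma adjusted p = 0.0029), where the value is the difference of mean log2(FPKM + 1) with its SE, as for the genes that follow. Its listed transcript has 3 exons in GENCODE M21, and the whole coding sequence lies in 1 of them.

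Tlr7, the endosomal RNA sensor, was listed at 0 FPKM in each of the 3 PBS libraries, while the bleomycin libraries measured 2.31, 1.05 and 1.27 FPKM. It thus passed the filter on low values through the bleomycin libraries alone, and no fold is given against a group listed at 0. Tlr7 (ENSMUSG00000044583.13, mm10 chromosome X, 167304931 to 167330558, minus strand) rose on the log2(FPKM + 1) scale (limma adjusted p = 0.0069). The sum combines Tlr7-001, the transcript with 3150 coding bases, and Tlr7-004, a short transcript of 366 exonic bases. With bleomycin Tlr7-001 measured 1.71, 0.227 and 0.788 FPKM and Tlr7-004 measured 0.597, 0.829 and 0.485 FPKM. In bleomycin replicate 2 most of the summed value therefore came from the short transcript, and with the transcript of the highest mean in place of the sum the gene did not pass the filter.

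Cd14, the lipopolysaccharide co-receptor, measured 17.5, 1.94 and 18.8 FPKM with PBS against 16.8, 8.79 and 25.5 FPKM with bleomycin. The groups overlapped, and the lowest value of all was that of PBS replicate 2. Its log2 fold change of 0.70 had a 95% interval from -1.18 to 2.58 (limma adjusted p = 0.563), so that neither a marked fall nor a marked rise lies outside it. Without PBS replicate 2 the log2 fold change of Cd14 was -0.20 (limma adjusted p = 0.78). The gene lies on chromosome 18 (ENSMUSG00000051439.6, mm10, 36725074 to 36726736, minus strand).

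Of the shared signalling genes, Myd88, the adaptor of most Toll-like receptors, measured 22.2, 24.0 and 18.01 FPKM with PBS against 31.5, 19.6 and 24.1 FPKM with bleomycin. The groups overlapped, and the value of bleomycin replicate 2 lay within the PBS range. Myd88 (ENSMUSG00000032508.8, mm10 chromosome 9, 119335934 to 119340041, minus strand) had a log2 fold change of 0.21 with a 95% interval from -0.31 to 0.72 (limma adjusted p = 0.534). In GENCODE M21 its locus lies inside Slc22a14 on the same strand over all 4108 bases and shares 366 bases with Acaa1a on the opposite strand. The sources used here do not say whether the deposited values separate reads of these genes.

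Irak4, the kinase that MyD88 recruits, measured 3.10, 3.04 and 3.67 FPKM with PBS against 5.92, 4.99 and 5.89 FPKM with bleomycin. The groups did not overlap and the spread within each was small, with means of 3.27 ± 0.346 and 5.60 ± 0.526 FPKM (SD, n = 3). Irak4 (ENSMUSG00000059883.16, mm10 chromosome 15, 94543643 to 94568306, plus strand) rose by 0.63 ± 0.16 on the log2 scale (limma adjusted p = 0.0375). This call was lost without any 1 of the 6 libraries (limma adjusted p 0.0668 to 0.108) and with libraries scaled to equal medians (0.0883) or quantile normalized (0.12).

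Among the inflammasome genes, Nlrp3, the sensor, measured 0.205, 0.31 and 0.109 FPKM with PBS against 14.1, 5.99 and 9.36 FPKM with bleomycin. All 3 PBS values were close to 0 and under the filter on low values, which the gene passed through the bleomycin libraries, and bleomycin replicate 1 was the highest. Nlrp3 (ENSMUSG00000032691.14, mm10 chromosome 11, 59541568 to 59566956, plus strand) rose by 3.09 ± 0.29 (limma adjusted p = 0.00076). Both listed transcripts, with the same 3099 coding bases and different starts, were higher with bleomycin. With bleomycin Nlrp3-001 measured 8.15, 4.06 and 5.36 FPKM and Nlrp3-201 measured 5.89, 1.93 and 4.001 FPKM, while neither exceeded 0.31 FPKM in a PBS library.

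Pycard, which encodes the adaptor ASC, measured 0.73, 0.508 and 1.11 FPKM with PBS against 5.52, 4.79 and 7.18 FPKM with bleomycin. The groups did not overlap. Pycard (ENSMUSG00000030793.4, mm10 chromosome 7, 127989708 to 127993867, minus strand) rose by 1.94 ± 0.22 (limma adjusted p = 0.00146). Its listed transcript has 3800 exonic bases in GENCODE M21, of which 579 are coding, and FPKM is scaled by the length of the transcript model. It shares 599 bases with Gm45205 on the opposite strand.

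Casp1, the protease of the complex, measured 1.27, 1.06 and 1.09 FPKM with PBS against 24.8, 17.99 and 15.6 FPKM with bleomycin. The PBS values lay close together, with a mean of 1.14 ± 0.115 FPKM against 19.4 ± 4.80 with bleomycin (SD, n = 3). Casp1 (ENSMUSG00000025888.5, mm10 chromosome 9, 5298517 to 5307265, plus strand) had the highest log2 fold change of the 9 genes, 3.23 ± 0.21 (limma adjusted p = 0.000212).

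Gsdmd, which encodes the pore-forming substrate of caspase-1, was well above the other inflammasome genes with PBS. It measured 15.6, 9.84 and 13.8 FPKM with PBS against 22.6, 19.3 and 20.6 FPKM with bleomycin. The groups did not overlap, but the log2 fold change of 0.66 ± 0.20 missed the threshold (limma adjusted p = 0.0583), with a 95% interval from 0.18 to 1.13. With library weights the adjusted p was 0.0446, and under the other settings it lay between 0.0548 and 0.153. Gsdmd lies on chromosome 15 (ENSMUSG00000022575.4, mm10, 75862339 to 75867404, plus strand).

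**Figure D2:**
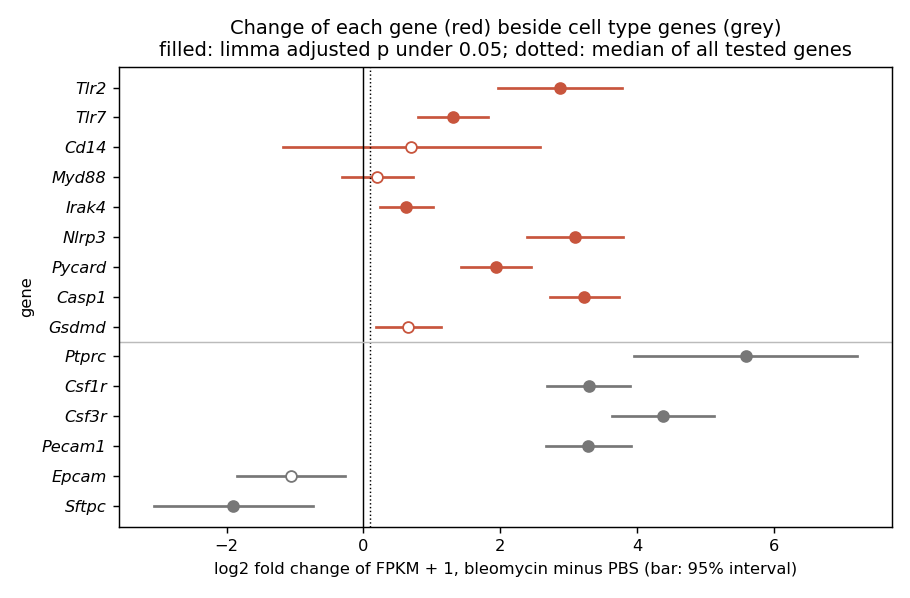
Log2 fold change of FPKM + 1, bleomycin minus PBS, with 95% intervals as horizontal bars, for the Toll-like receptor and inflammasome genes in red and for 6 cell type genes in grey. Filled circles passed the limma test at an adjusted p under 0.05, the dotted line is the median of all tested genes, and the intervals of Cd14 and Myd88 include 0.

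The order of the levels differed between the groups. FPKM is scaled by the length of the transcript model, so levels of different genes compare only as far as the models and read assignment hold. The limits given above for Myd88, Pycard and Tlr7 apply to their places in the order. With PBS, Myd88 stood first at 21.4 ± 3.05 FPKM (mean ± SD, n = 3), above Gsdmd at 13.1 ± 2.92 and Cd14 at 12.7 ± 9.38 FPKM. The values of Gsdmd and Cd14 overlapped, as did those of each pair of neighbours down through Irak4, Tlr2, Casp1 and Pycard, while Nlrp3 and then Tlr7 lay below Pycard without overlap. With bleomycin, Myd88 at 25.1 ± 5.96, Tlr2 at 23.6 ± 9.03, Gsdmd at 20.8 ± 1.67, Casp1 at 19.4 ± 4.80 and Cd14 at 17.0 ± 8.35 FPKM followed each other with overlap between neighbours. Nlrp3, Pycard and Irak4 came next, each overlapping its neighbour, and Tlr7 was lowest at 1.55 ± 0.668 FPKM. Tlr2, Nlrp3 and Casp1 thus moved up in the order, and Irak4 moved from the fourth place to the eighth.

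Most of the genes also had the same highest and the same lowest bleomycin library. Bleomycin replicate 1 held the highest bleomycin value for 7 of the 9 genes and replicate 3 for the other 2, Cd14 and Pycard. Bleomycin replicate 2 held the lowest value for 8 of the 9, with Casp1 as the exception. The share of all tested genes with the same order was not counted, so the order cannot be called particular to these genes. Bleomycin replicate 1 also had the largest listed FPKM sum of its group, 272315 against 263132 and 259607.

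The same libraries differed in the markers of other cells. Over 7 leukocyte marker lists, 46 of 53 tested genes rose and none fell, against 15.2% and 7.34% of all tested genes, and 19 of the 46 had a PBS mean under 1 FPKM. The summed FPKM of the pan-leukocyte list (Ptprc, Laptm5, Coro1a, Itgb2, Cd53 and Lcp1) lay between 57.8 and 78.7 with PBS and between 942 and 1403 with bleomycin, that of the neutrophil list between 37.9 and 71.6 and between 445 and 636, that of the alveolar macrophage list between 19.0 and 35.5 and between 342 and 463, and that of the list of monocytes and recruited macrophages between 17.96 and 22.8 and between 113 and 173. Ms4a7, of the last list, was the only leukocyte marker listed at 0 in all 3 PBS libraries, and none was at 0 in all 3 bleomycin libraries. Single genes made up much of some sums. In PBS replicate 1 Lcp1 measured 39.7 FPKM and the neutrophil gene Hdc 42.4, and in bleomycin replicate 1 the alveolar macrophage gene Chil3 measured 358. Of 7 tested neutrophil genes 6 rose, and of 10 alveolar macrophage genes 7 rose. Hdc and Ear2, of these 2 lists, had log2 fold changes of -0.66 and -0.42 and did not pass. Summed FPKM of the T and NK cell list lay between 2.52 and 7.77 with PBS and between 240.2 and 446 with bleomycin, and that of the B and plasma cell list between 13.5 and 25.1 and between 450.4 and 896. The summed FPKM of the endothelial list lay between 26.1 and 28.5 with PBS and between 277 and 518 with bleomycin. All 9 alveolar type 2 markers fell, although Sftpc, the surfactant protein C gene, was still listed at 2356 FPKM or more in every bleomycin library. The pan-epithelial gene Epcam was at 47.5 ± 5.58 FPKM with PBS and 23.7 ± 9.69 FPKM with bleomycin (SD, n = 3; limma adjusted p = 0.0634), and none of the 5 pan-epithelial genes passed the test. Of 5 fibroblast genes 3 fell, and their summed FPKM lay between 1738 and 2444 with PBS and between 419 and 1086 with bleomycin. Itgax, Csf1r, Adgre1 and Csf3r, which mark macrophages, monocytes and neutrophils, had log2 fold changes of 3.81, 3.29, 3.28 and 4.38, and Pecam1, of endothelium, one of 3.28. The part of these cells in the increases of the Toll-like receptor and inflammasome genes was not tested.

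Relative to Ptprc, the gene of the pan-leukocyte antigen CD45, all 9 genes were lower with bleomycin. The quantity compared here is log2((gene FPKM + 1)/(Ptprc FPKM + 1)) in each library. For Casp1 it averaged -0.54 ± 1.42 with PBS and -2.90 ± 0.33 with bleomycin (SD, n = 3), a difference of -2.36. For Nlrp3 the difference was -2.49, for Tlr2 -2.71 and for Pycard -3.65. No size is given for Tlr7, which was listed at 0 with PBS. The differences for Cd14, Gsdmd, Irak4 and Myd88 ran from -4.89 to -5.38. In each of the 9 genes the groups did not overlap, with an exact two-sided permutation p of 0.1, which is the smallest that 3 against 3 libraries can give, and an adjusted p of 0.1 over the 9. Ptprc itself measured 0.0706, 3.81 and 4.85 FPKM with PBS against 249.5, 123 and 107 FPKM with bleomycin. Its log2 fold change of 5.59 was higher than that of 99.98% of the tested genes, so that nearly any gene would be lower relative to it. The sizes depended on PBS replicate 1, the library with the lowest Ptprc value: without it the differences for Casp1, Nlrp3 and Tlr2 were -1.54, -1.72 and -1.73. With the pan-leukocyte mean as reference they were -1.26, -1.39 and -1.61. The order of the genes turned with the pseudocount, since with 0.1 the difference was -1.66 for Nlrp3 and -2.69 for Casp1.

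**Figure D3:**
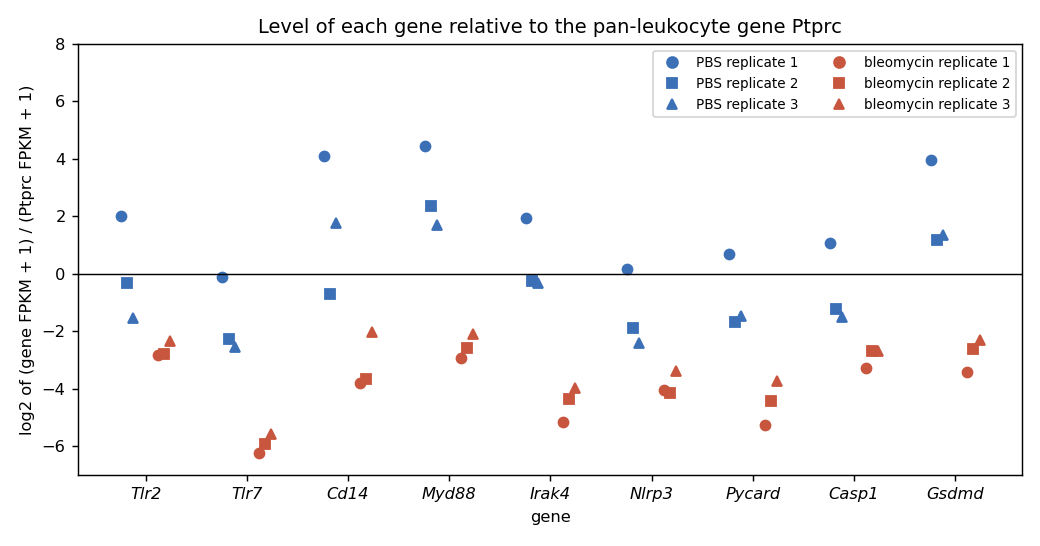
Level of each gene relative to Ptprc in every library, as the log2 ratio of FPKM + 1, with blue symbols for PBS, red symbols for bleomycin and symbol shape for the replicate number. All bleomycin values lie below all PBS values in each gene.

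Beyond these 9 genes, 9 lists of the wider pathway held 119 genes, of which 94 were tested. Of these 44 rose, none fell and 50 did not pass (limma adjusted p under 0.05), where 15.2% of all tested genes rose and 7.34% fell. Of the 44, 16 had a PBS mean under 1 FPKM and so passed the filter through the bleomycin libraries, which raises the counts and medians of their lists. Besides the genes marked where they are described, Cd180, Btk, Il1r2, Tnf and Ccl4 are among the 16, so their calls were partly fixed by the filter. The lists are given in the order of the pathway, from receptors to target genes.

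Of 9 other Toll-like receptor genes 3 were tested and 1 rose. Tlr1, the partner of TLR2, measured 0.109, 0.318 and 0.48 FPKM with PBS against 12.7, 8.88 and 9.50 FPKM with bleomycin, a rise of 3.12 ± 0.21 (limma adjusted p = 0.000228). It passed the filter through the bleomycin libraries alone, and with its highest transcript in place of the sum the value was 2.33. Tlr3, the sensor of double-stranded RNA, was at 4.31 ± 1.20 FPKM with PBS and 5.39 ± 0.949 with bleomycin (SD, n = 3; limma adjusted p = 0.423). Tlr5, the flagellin receptor, was at 1.18 ± 0.269 and 0.592 ± 0.406 FPKM (SD, n = 3; limma adjusted p = 0.189), and with quantile normalization its log2 fold change was -0.87 (0.0244). Tlr6, Tlr8 and Tlr13 were below the filter, with no value above 3.09 FPKM in any library.

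Of 8 tested receptor partners and trafficking proteins 3 rose, and the list median was 0.45. Unc93b1, the chaperone that carries TLR7 and its relatives to endosomes, measured 12.3, 11.6 and 11.2 FPKM with PBS against 47.8, 37.9 and 60.2 FPKM with bleomycin (1.94 ± 0.20, limma adjusted p = 0.000972). Ly86 and Cd180, whose products form a receptor complex of B cells and macrophages, rose by 2.51 and 1.43, the latter with a limma adjusted p of 0.0444 that exceeded 0.05 under 11 other settings. Ly96 and Lbp, which serve lipopolysaccharide recognition, had limma adjusted p of 0.169 and 0.138. Cd36, named here after its values were seen, had a log2 fold change of -0.59 (limma adjusted p = 0.0879) and fell by 0.78 with equal medians (0.0442).

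Of 17 tested adaptors and kinases 4 rose (23.5%, near the 15.2% of all tested genes), with a list median of 0.51. Syk and Btk, kinases of leukocyte signalling, rose by 3.35 ± 0.31 and 3.11 ± 0.21 (limma adjusted p = 0.000683 and 0.000245), and Ikbke, an IKK-related kinase, by 1.48. The related kinase gene Tbk1 rose by 0.50 (limma adjusted p = 0.0386). The remaining 13, among them Irak1, Irak2, Traf6, Tirap and Ticam1, did not pass. Myd88, as described, did not pass either.

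Of 9 transcription factor genes 6 rose, with a list median of 0.84. Rel, an NF-kB subunit of lymphoid and myeloid cells, measured 1.497, 4.18 and 2.66 FPKM with PBS against 44.5, 29.9 and 31.7 FPKM with bleomycin (3.31 ± 0.30, limma adjusted p = 0.000673). Irf5 and Irf7, interferon regulatory factors downstream of Toll-like receptors, rose by 3.27 and 1.43, the former by 2.37 with its highest transcript in place of the sum. Nfkb1, Nfkb2 and Irf8 rose by 0.77, 0.84 and 1.09. Rela, the widely expressed NF-kB subunit, had a log2 fold change of 0.01 (limma adjusted p = 0.971).

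Of 12 tested negative regulators 6 rose, with a list median of 0.82. Tnfaip3, which encodes the ubiquitin-editing enzyme A20, measured 3.31, 12.9 and 4.403 FPKM with PBS against 83.3, 68.2 and 109 FPKM with bleomycin (3.65 ± 0.45, limma adjusted p = 0.00221). The NF-kB inhibitor gene Nfkbie and the deubiquitinase gene Cyld rose by 1.75 and 1.15. The call of Cyld was lost with its highest transcript in place of the sum (1.30, limma adjusted p = 0.13). Nfkbia, Zc3h12a and Peli1 were the other 3 that rose. Tollip, Sigirr and Irak3, inhibitors of receptor signalling, did not pass.

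Of 10 tested genes in the list of other pattern sensors, which also holds the adaptor gene Card9, 8 rose. All 8 had a PBS mean under 1 FPKM and passed the filter through the bleomycin libraries, so that the filter largely fixed this count. Aim2, the inflammasome sensor of cytosolic DNA, measured 0.49, 0.388 and 1.19 FPKM with PBS against 33.3, 22.2 and 23.9 FPKM with bleomycin. Its log2 fold change was 4.03 ± 0.25 (limma adjusted p = 0.000198), beside 3.09 ± 0.29 for Nlrp3, and the difference between the genes was not tested. Naip5, which binds bacterial flagellin, rose by 2.28, and Nlrc3 was listed at 0, 0 and 0.028 FPKM with PBS and at 3.09, 3.73 and 3.65 FPKM with bleomycin. Naip2, Naip6, Nlrc4, Mefv and Card9 were the other 5 that rose. Naip2, Naip5 and Naip6 belong to the same gene family, and how reads were split among them is uncertain. The 2 that did not pass, Nod1 and Nlrx1, were already above 3 FPKM in every PBS library.

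Of 10 inflammasome triggers and cofactors 4 rose, with a list median of 0.43. Panx1, a channel gene, and P2rx7, the receptor for extracellular ATP, rose by 0.96 and 1.01, and Gbp3 and Gbp5, guanylate-binding protein genes, by 0.57 and 0.91. The limma adjusted p of P2rx7 was 0.0293 and lay between 0.0105 and 0.0912 when libraries were left out in turn, and that of Gbp3 (0.0331) rose to between 0.0643 and 0.0862. Nek7, the kinase that binds NLRP3, was at 19.7 ± 3.04 FPKM with PBS and 27.3 ± 1.55 with bleomycin (SD, n = 3; limma adjusted p = 0.09).

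Of 14 tested caspases, cytokines and receptors around pyroptosis 8 rose, with a list median of 1.22. Il1b, the best known substrate gene of caspase-1, measured 1.18, 1.88 and 2.88 FPKM with PBS against 110, 27.7 and 66.5 FPKM with bleomycin (4.37 ± 0.50, limma adjusted p = 0.00163). The bleomycin values of Il1b were spread widely, with replicate 2 lowest as for Nlrp3 and Tlr2. Casp8 rose by 1.63 ± 0.15 (limma adjusted p = 0.000675), from 7.29 ± 0.382 to 24.8 ± 2.76 FPKM (SD, n = 3), and Il1r2, the decoy receptor gene, by 2.99. With its highest transcript in place of the sum, Casp8 rose by 0.75 (limma adjusted p = 0.049). Casp4, the mouse gene of caspase-11, which senses intracellular lipopolysaccharide, rose by 1.10, and Il18 by 1.499. The gasdermin E gene, listed under its older symbol Dfna5, was listed at 0 in each PBS library, measured 2.06, 1.18 and 0 FPKM with bleomycin, and was below the filter.

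Of 11 tested early targets of Toll-like receptor signalling 4 rose, with a list median of 0.33. They were Tnf (2.22), Cxcl2 (4.28), Ccl3 (3.15) and Ccl4 (2.98), a cytokine and 3 chemokines, with limma adjusted p of 0.000928 to 0.00633. Tnf measured 0.504, 0.965 and 0.716 FPKM with PBS against 11.1, 4.64 and 6.50 FPKM with bleomycin. Il6, Cxcl1, Ptgs2 and Nfkbiz did not pass, and each had its highest value in PBS replicate 2. Il6 measured 1.29, 16.9 and 2.94 FPKM with PBS against 6.61, 3.90 and 5.33 FPKM with bleomycin. PBS replicate 2 was also the library in which Cd14 was lowest.

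**Figure D4:**
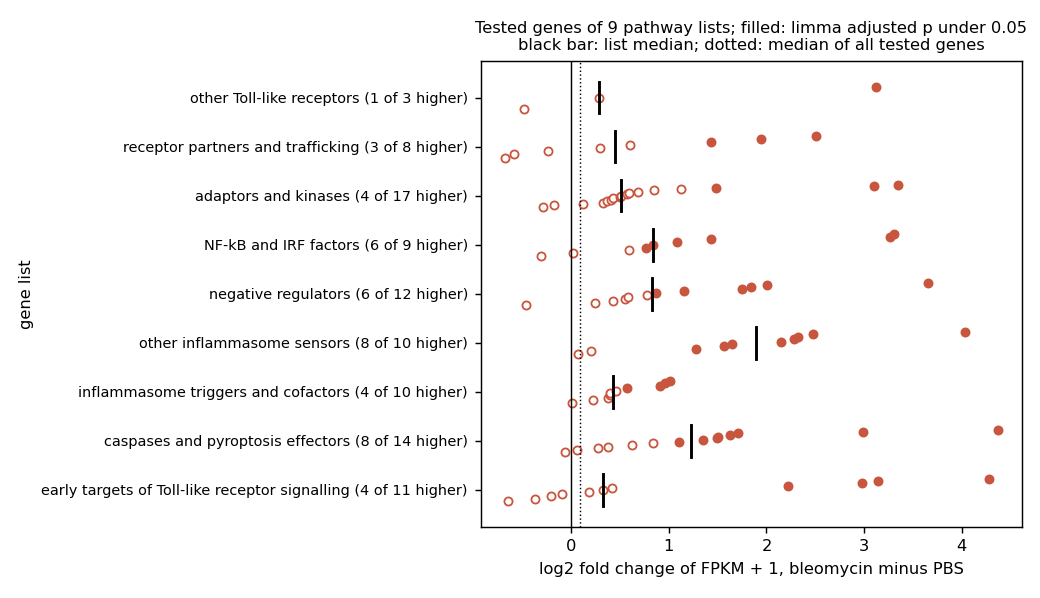
Log2 fold change of FPKM + 1, bleomycin minus PBS, of every tested gene in 9 pathway lists, with filled circles for a limma adjusted p under 0.05, a black bar at the list median and a dotted line at the median of all tested genes; the vertical offset within a list only separates the points. Filled circles lie to the right of 0 in every list, and 16 of the 44 are genes with a PBS mean under 1 FPKM.

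By pattern over the 6 libraries, the gene most like each member was sought among 8879 tested genes that averaged 5 FPKM or more in either group, by Pearson's r of the log2 values. Il18rap was most like Casp1 (r = 0.9998), Mthfd2 most like Pycard (0.9998), Mxd1 most like Tlr7 (0.9997), Arpc2 most like Nlrp3 (0.9991) and Coa5 most like Irak4 (0.9987). For Tlr2 it was Wdr82 (r = 0.997), for Gsdmd Edem2 (0.996), for Cd14 Wdr70 (0.991) and for Myd88 1700047I17Rik2 (0.977). These r describe 6 libraries that fall into 2 groups, and they compare shapes and not sizes: Wdr82 had a log2 fold change of 0.67 where Tlr2 had 2.87.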

How the data were processed

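Total RNA of type 2 preparations was isolated with TRIzol and made into libraries with a KAPA stranded kit, per the labels' protocols. The authors deposited one FPKM value per transcript and library, per the file headers (24647 transcripts, 13931 genes). HISAT2, StringTie, FastQC 0.10.1 and mm10 are named per the submitters' processing notes; the sources used here do not give settings or annotation. Listed FPKM sum to 253146 to 300697 per library; read depth is unknown, so no counting interval is given, and an exact 0 can be a failed estimate.

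Transcripts were summed by gene ID. Genes reaching 1 FPKM in 3 or more libraries (12326) were tested on log2(FPKM + 1), which understates changes of low genes, with limma 3.58.1 in R 4.3.3 (trended eBayes, no covariates, Benjamini-Hochberg, threshold 0.05). The fit was tested on simulated data. Groups and replicate numbers came from the sample titles. Members and lists were chosen with earlier results of these data known, so list counts are descriptions. From each pathway list the 3 genes with the smallest adjusted p were named, any called gene against its list's majority, and from the marker lists Ptprc, Itgax, Csf1r, Csf3r, Adgre1, Pecam1, Sftpc and Epcam; other genes were named after their values were seen. Alternatives covered pseudocount, filter, scaling, transcript choice, variance model, library weights, replicate block and each library left out.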

Additional observations from a re-analysis of the deposited data

How the results depend on the processing

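Tlr2, Nlrp3, Pycard and Casp1 rose past the threshold under every alternative in which they were tested, and so did Tlr7. The filter was set on all 6 libraries and was not applied again when a library was left out. Tlr7 and Nlrp3 were under 1 FPKM in every PBS library, so without any bleomycin library they would not have met it. Their calls were partly fixed by the filter, and their persistence with libraries left out is no separate support. Of the 9 genes 6 rose, against 5 with equal medians, quantile normalization, the replicate block or any 1 library left out, 7 with library weights, 4 with the highest transcript in place of the sum and 3 with a filter of 5 FPKM, under which Tlr7, Pycard and Irak4 were not tested. None fell. Of the 9, only Cd14 changed direction, with log2 fold changes from -0.20 (without PBS replicate 2) to 1.18 (without PBS replicate 3) when libraries were left out. In the pathway lists 44 genes rose, against 29 with the filter of 5 FPKM and 34 to 41 with libraries left out in turn. None fell, against 1 with equal medians (Cd36), 1 with quantile normalization (Tlr5), 1 with the highest transcript (Cd36) and 0 to 1 with libraries left out (Icam1, without PBS replicate 1). Over all genes 905 fell, against 1413 with equal medians and 1441 with quantile normalization, under which the median change over tested genes went from 0.09 to -0.07 and -0.08 (log2), and 457 to 873 with libraries left out. Rises made up 67.4% of all calls, 51.1% with equal medians and 49.8% with quantile normalization. The cause of these shifts was not tested.

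Same-numbered PBS and bleomycin libraries did not deviate together over the genes as a whole (r of -0.0043, 0.0172 and 0.0391). Such an r cannot exclude a pairing that touches few genes, and the sources used here name none. With the replicate number as a block, 5 of the 9 genes rose, Irak4 had a limma adjusted p of 0.0865, and 563 genes fell over all genes. The sign of the differences relative to Ptprc is fixed by the size of the Ptprc increase and says nothing of stability. The read depth behind each FPKM value is unknown, which limits what can be said of genes near 0 such as Tlr7.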
